A study of Mus with 5 samples.

Results

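The angiopoietins Angpt1 and Angpt2 and the Tie receptors Tek (also called Tie2) and Tie1 were followed in hearts that overexpress Bmp2. They were selected by their Ensembl identifiers, and all 4 were among the 12857 genes with deposited values. Angpt1 is the activating ligand of Tek, a receptor tyrosine kinase of endothelium and endocardium, and is made in the heart mainly by cells outside the endothelium, including myocardium. Angpt2 is made chiefly by endothelial cells and acts on Tek as an antagonist or a weak agonist depending on context. Tie1 binds neither ligand strongly by itself and works in complexes with Tek. Signalling through Tek supports trabecular growth, the survival of endothelial cells and the assembly of coronary vessels.

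RNA was taken from ventricles and valves, with the atria removed, of E14.5 embryos of 2 genotypes. Transgenic hearts were Nkx2.5Cre/+;Bmp2tg/+, in which Cre made from the Nkx2.5 locus switches on a Bmp2 transgene in the Rosa26 locus under a CAG promoter. Controls were labelled WT. The cross that the study gives for this genotype used Nkx2.5Cre/Cre dams, whose offspring without the transgene are Nkx2.5Cre/+, but whether the WT pools came from that cross is not given in the sources used here. If they did not, effects of the Cre allele and of the transgene cannot be told apart. The authors pooled 12 hearts per genotype into 3 pools of 4 hearts and excluded 1 WT pool because it did not cluster with the others, which leaves 3 transgenic and 2 WT pools. The WT spread therefore rests on 2 pools that were kept partly for being alike. Because hearts were homogenised whole, fewer cells of a type and less RNA per cell cannot be told apart in any value below.

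Values are counts per 1000000 reads (CPM), which the authors scaled to an adjusted library size. In each library 100% of the values were whole multiples, within 0.01, of the worth of 1 read, and the reads came to between 7427905 and 10564780 per pool. A count of 0 allows up to 3 reads, or 0.287 to 0.402 CPM, and this limit covers counting error only. Genotypes were compared as log2(CPM + 0.5) with limma. Benjamini-Hochberg adjustment covered all 12857 genes, and the threshold was an adjusted p of 0.05. At that threshold 362 genes (2.82%) were called, 157 higher and 205 lower in transgenic hearts. Bmp2, which the transgene encodes, was at 23.0, 27.1 and 23.3 CPM in transgenic pools 1, 2 and 3 and at 14.1 and 10.2 CPM in WT pools 1 and 2. The transgenic and WT pools did not overlap in Bmp2. Of the 9 cardiomyocyte markers chosen to check the tissue, 0 were paired with identifiers, so the tissue label was not checked with them.

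All 4 genes had lower mean values in transgenic than in WT hearts, and for all 4 the transgenic pools lay below both WT pools. The genes with transgenic pools below both WT pools made up 18.0% of all genes. Angpt1 and Tie1 passed the threshold and Angpt2 and Tek did not, so 2 of the 4 were called lower, against 1.59% of all genes. The authors had already listed Angpt1 and Tie1, but not Angpt2 or Tek, as changed in these same libraries. The 2 calls are therefore not independent of that list. Without adjustment, all 4 had a limma p under 0.05, and 9.40% of all genes were lower at that level. The median log2 fold change of the 4 was -0.44, beside 0.0045 for all genes tested. The sizes were unequal, from 57.1% below the WT mean for Angpt1 to 11.6% below it for Tek.

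**Figure D1:**
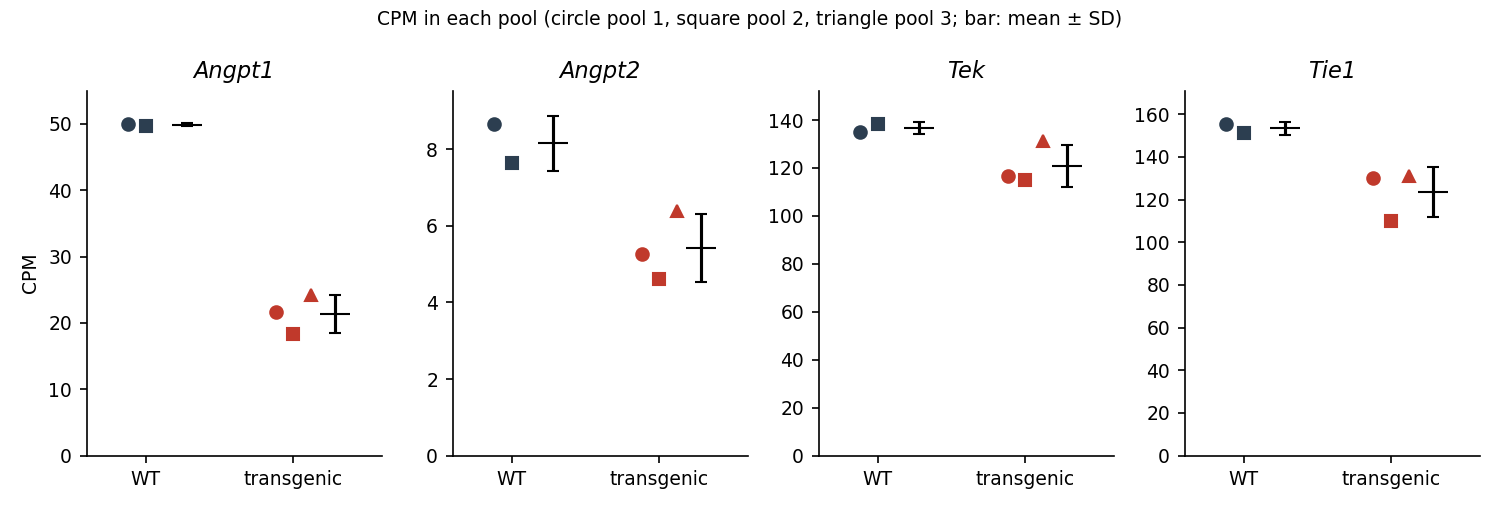
CPM of Angpt1, Angpt2, Tek and Tie1 (y axes, from 0, a scale for each gene) in the WT pools (dark) and transgenic pools (red), with the mean ± SD as a bar beside the points (n = 2 WT and 3 transgenic pools). In each panel the transgenic points lie below both WT points, with the widest gap for Angpt1 and the narrowest for Tek, whose pool 3 (131 CPM) sits just under WT pool 1 (135 CPM).

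Angpt1 (ENSMUSG00000022309) lies on chromosome 15 at 42424667 to 42676977 in GRCm38.p6. Transgenic pools 1, 2 and 3 had 21.6, 18.4 and 24.1 CPM, from 226, 171 and 193 reads. WT pools 1 and 2 had 50.0 and 49.7 CPM, from 473 and 371 reads. The transgenic pools stood at 43.3%, 36.8% and 48.4% of the WT mean. The counting intervals (exact Poisson, 95%) of the groups did not meet, since the highest bound of a transgenic pool was 27.8 CPM and the lowest bound of a WT pool was 44.8 CPM. By the limma test Angpt1 fell, from a WT mean of 49.9 ± 0.197 CPM (SD, n = 2) to a transgenic mean of 21.4 ± 2.90 CPM (SD, n = 3). Its log2 fold change was -1.21, with a standard error of 0.11, a 95% interval of -1.44 to -0.99 and a limma adjusted p of 8.15e-06. Only 15 of the 12857 genes had a lower log2 fold change, and only 3 of the 205 genes called lower did.

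The agreement of the WT pools for Angpt1 was closer than counting alone gives. Their SD was 0.197 CPM, whereas the reads behind them imply a counting SD of 2.44 CPM. Among transgenic pools the SD of 2.90 CPM was above the counting SD of 1.53 CPM. Leaving out any 1 pool gave Angpt1 a log2 fold change of -1.30 to -1.11, always past the threshold. Over the 13 other settings the adjusted p ranged from 1.4e-08 to 0.0587, and the call was lost only in limma without the variance trend, where the adjusted p was 0.0587.

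Angpt2 (ENSMUSG00000031465, chromosome 8, 18690263 to 18741562 in GRCm38.p6) had the fewest reads of the 4 genes. It was at 5.26, 4.62 and 6.38 CPM in transgenic pools 1, 2 and 3 and at 8.67 and 7.64 CPM in WT pools 1 and 2, from 55, 43, 51, 82 and 57 reads in that order. The groups did not overlap, but the gap between transgenic pool 3 and WT pool 2 was small. The counting intervals of those 2 pools did overlap, at 4.75 to 8.39 CPM and 5.79 to 9.90 CPM. The means were 5.42 ± 0.891 CPM (SD, n = 3) and 8.15 ± 0.728 CPM (SD, n = 2), 33.6% lower in transgenic hearts. Counting alone implies an SD of 0.774 CPM in the transgenic and 0.985 CPM in the WT pools, close to what was seen. The log2 fold change was -0.56 with a 95% interval of -0.94 to -0.17 and a limma adjusted p of 0.113. That interval holds the estimates of Tek and Tie1 given below and does not reach the -1.21 of Angpt1.

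Tek (ENSMUSG00000006386), the receptor of both ligands, lies on chromosome 4 at 94739086 to 94874976 in GRCm38.p6. It was at 117, 115 and 131 CPM in transgenic pools 1, 2 and 3 and at 135 and 138 CPM in WT pools 1 and 2, each from 1033 to 1277 reads. Transgenic pool 3 stood at 95.8% of the WT mean, while pools 1 and 2 stood at 85.3% and 84.2%. The means were 121 ± 8.82 CPM (SD, n = 3) and 137 ± 2.44 CPM (SD, n = 2). The log2 fold change of -0.18 (95% interval -0.32 to -0.04) had a limma adjusted p of 0.160 and was not past the threshold. Of all genes, 14.4% had a lower log2 fold change than Tek. Without transgenic pool 3 it was -0.24 and past the threshold (limma adjusted p = 0.0482), whereas it was -0.15 without pool 1 (limma adjusted p = 0.291) and -0.14 without pool 2 (limma adjusted p = 0.366). Over the 13 other settings the adjusted p of Tek ranged from 0.0427 to 0.503.

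Tie1 (ENSMUSG00000033191), the partner receptor, lies on the same chromosome at 118471191 to 118489849. It was at 130, 110 and 131 CPM in transgenic pools 1, 2 and 3 and at 156 and 151 CPM in WT pools 1 and 2, each from 1024 to 1471 reads. The transgenic pools did not reach the WT range, and pool 2 was the lowest of them, at 71.7% of the WT mean. Tie1 fell, from a WT mean of 153 ± 3.15 CPM (SD, n = 2) to a transgenic mean of 124 ± 11.8 CPM (SD, n = 3). The log2 fold change was -0.31 (standard error 0.07, 95% interval -0.47 to -0.16, limma adjusted p = 0.0277). Without transgenic pool 2 it was -0.23 and no longer past the threshold (limma adjusted p = 0.0624). The call was also lost without WT pool 1 or WT pool 2, when the remaining WT pool is assumed to vary like the transgenic pools, under quantile normalization, and in limma without the variance trend. Over the 13 other settings the limma adjusted p of Tie1 ranged from 0.0031 to 0.28, with 8 of them past the threshold.

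**Figure D2:**
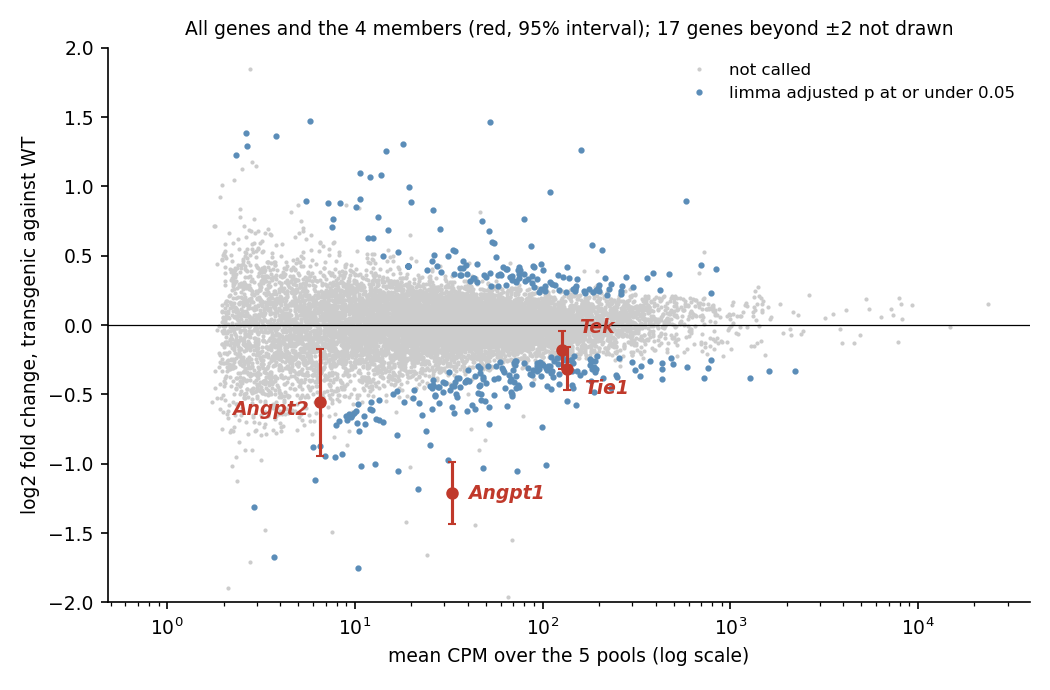
Log2 fold change, transgenic against WT (y axis), against mean CPM over the 5 pools (x axis, log scale) for all genes tested, with called genes in blue and the 4 genes of the angiopoietin and Tie group in red with 95% intervals. Angpt1 at -1.21 lies below most genes, with 15 of the 12857 genes lower. Angpt2 has the widest interval, and Tek and Tie1 lie at nearly the same level, with Tie1 at the lower edge of the cloud. The 17 genes beyond 2 in either direction are not drawn.

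The ligands and the receptors were then compared within each pool, which removes library scaling. Gene length cancels only in the change of such a difference between genotypes. The difference between Angpt1 and the mean of Tek and Tie1, in log2(CPM + 0.5), was -2.48, -2.58 and -2.42 in transgenic pools 1, 2 and 3 and -1.53 in both WT pools. The transgenic pools lay well below the WT pools and spread little. The change in this difference was -0.97. The ratio of Angpt1 to the mean of Tek and Tie1 was thus 1.95-fold lower in transgenic hearts. Against Tek alone the change was -1.03 (2.05-fold lower), and against Tie1 alone it was -0.90. The 95% interval of the change against the mean of both, from its own 3 residual degrees of freedom, was -1.16 to -0.77. It pools an SD of 0.084 in transgenic with 0.0037 in WT pools. Because the WT values of Angpt1 agreed more closely than counting alone gives, the interval may be too narrow. This fit was added after seeing the data. For Angpt2 the same difference was -4.42, -4.46 and -4.26 in transgenic pools 1, 2 and 3 and -3.99 and -4.16 for WT. The groups were again separate, by a narrow margin, and the change of -0.31 had a 95% interval of -0.64 to 0.02. Relative to the mean of Tek and Tie1, Angpt2 was thus not shown to differ.

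An exact two-sided permutation test of the 10 arrangements of 3 against 2 pools cannot give a p below 0.2. That was its value for both ligands against the receptors. Across the 8 such differences computed, which were the 6 pairs of genes and both ligands against the receptor mean, 7 had this smallest permutation p (0.229 adjusted) and Tek against Tie1 had an exact permutation p of 0.4. The limma fit planned for this comparison, with every gene referenced to the receptor mean, gave an adjusted p of 6.27e-11 for Angpt1 and 0.218 for Angpt2. That fit borrowed spread from genes that all share the noise of the same receptors, so that 38565 degrees of freedom were assigned, and 30.0% of all genes were called in it. Its p-values are too small and no statement here rests on them.

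**Figure D3:**
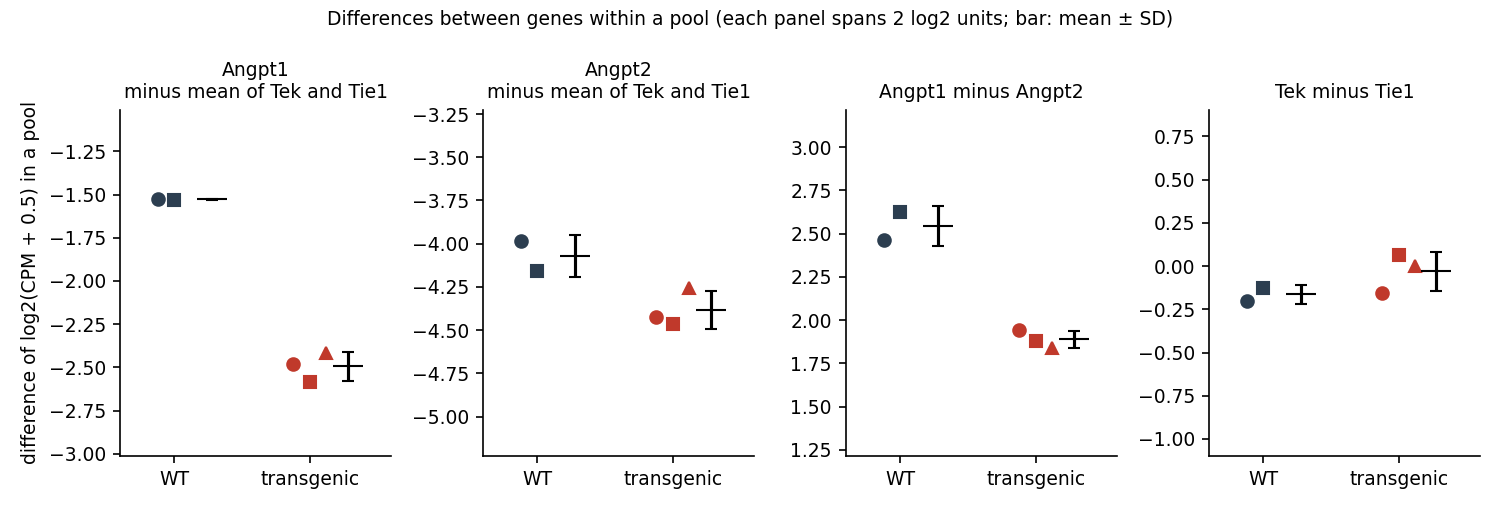
Differences of log2(CPM + 0.5) between genes within each pool (y axes, every panel 2 log2 units tall) for WT (dark) and transgenic pools (red), with the mean ± SD as a bar. The ratios of Angpt1 to the receptors and of Angpt1 to Angpt2 separate the genotypes widely, that of Angpt2 to the receptors narrowly, and Tek against Tie1 overlaps. The height of a panel's values depends on gene length and is not comparable between panels.

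Between the ligands, the difference of Angpt1 from Angpt2 was 1.94, 1.88 and 1.84 in transgenic pools 1, 2 and 3 and 2.46 and 2.63 in WT pools 1 and 2. The change between genotypes was -0.66 (exact permutation p = 0.2, the smallest possible), and each transgenic pool had less Angpt1 for its Angpt2 than either WT pool. Between the receptors, Tek minus Tie1 was -0.16, 0.07 and 0.0014 for transgenic and -0.20 and -0.13 for WT hearts. These ranges overlapped, and the difference between genotypes was 0.13 (exact permutation p = 0.4). That Tie1 was called and Tek was not does not show that the receptors changed differently.

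The 4 genes shared an order within the transgenic group. Each was lowest in pool 2 and highest in pool 3, an order found in 18.0% of all genes and in 25.4% of the genes whose transgenic pools all lay below WT. Of the lower vessel genes described below, Flt4, Plvap, Aplnr, Pdgfrb, Myh11 and Abcc9 had the same order. Kdr, Nrp2, Cdh5 and Sox18 were lowest in pool 2 but highest in pool 1, and Rgs5 was lowest in pool 1. Bmp2 was highest in pool 2, at 27.1 CPM, with 23.0 and 23.3 CPM in pools 1 and 3. With 3 pools this is a description of these libraries, and the part of single pools in the order was not tested. Without pool 2 the log2 fold changes of Angpt2, Tek and Tie1 were -0.46, -0.14 and -0.23, and without pool 3 they were -0.67, -0.24 and -0.36.

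Other genes of the pathway and markers of vessel cells could be followed only where an identifier was paired with a symbol, which was the case for 405 genes that the authors listed as changed in these same libraries. A count of called genes among them is therefore not independent evidence of direction. These 405 genes include Angpt1 and Tie1. Of the 405 genes, 253 (62.5%) had a log2 fold change below 0 and 180 (44.4%) were called lower, against 1.59% of all genes. The counts and medians below are a description of genes selected in this way, beside a median of 0.0045 over all genes tested. None of the 26 Tie signalling partners (adaptors, phosphatases, the PI3K and Akt kinases, integrins) and none of the 6 angiopoietin-like genes was paired, and they were not analysed here. Of the 10 VEGF ligands and receptors, 3 were paired and all 3 were called lower, with a median log2 fold change of -0.52. Kdr, the main VEGF receptor of endothelium, had 137, 112 and 132 CPM in transgenic pools 1, 2 and 3. WT pools 1 and 2 had 172 and 176 CPM. Kdr fell, with a log2 fold change of -0.46 (limma adjusted p = 0.00286, standard error 0.07). Flt4, the receptor of Vegfc, and Nrp2, a co-receptor, also fell, with log2 fold changes of -0.52 and -0.62 (limma adjusted p = 0.00646 and 0.00402).

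Of the 24 endothelial and endocardial markers, 4 were paired and 2 of these were called lower, with a median log2 fold change of -0.43. Dll4 and Hey1, also among the 24, are reported by the paper as downregulated, but neither was paired with an identifier here. The summed level of the 4 paired markers was 282 to 332 CPM in the transgenic libraries, against 390 and 406 CPM in WT. Most of that sum was Cdh5, whose values are given below. Plvap, a protein of endothelial fenestrae, and the apelin receptor gene Aplnr fell, with log2 fold changes of -0.72 and -0.44 (limma adjusted p = 0.00109 and 0.0131). Cdh5, which encodes vascular endothelial cadherin, was at 239, 204 and 236 CPM in transgenic pools 1, 2 and 3 and at 275 and 263 CPM in WT pools 1 and 2. Its log2 fold change of -0.25 was not past the threshold (limma adjusted p = 0.0563), and neither was that of the endothelial transcription factor gene Sox18 (-0.41, limma adjusted p = 0.0661). These 4 could be followed because the authors listed them as changed, whereas Tek and Angpt2 are not on that list, so sizes are not compared between them. The part of endothelial cell number in the values of Tek, Tie1 and Angpt2 was not tested.

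Mural cells, the pericytes and smooth muscle cells of vessel walls, are a source of Angpt1. Of their 9 markers, 4 were paired and 3 were called lower, with a median log2 fold change of -0.44. Their summed level was 285 to 327 CPM in transgenic and 395 and 403 CPM in WT pools. Most of that sum was Abcc9, at 147 to 170 CPM in transgenic and 207 and 218 CPM in WT pools. Which cells of these hearts made the Abcc9 RNA was not tested. The pericyte gene Rgs5, the potassium channel subunit gene Abcc9 and the smooth muscle myosin gene Myh11 fell, with log2 fold changes of -0.48, -0.41 and -0.71 (limma adjusted p = 0.0089, 0.00282 and 0.0204). Pdgfrb, the receptor that marks pericytes, had a log2 fold change of -0.24 (limma adjusted p = 0.0519). Angpt1 had the lowest log2 fold change of the 16 genes in the plot of vessel genes. Its whole interval, -1.44 to -0.99, lay below the estimates of the 4 mural genes. It overlapped the interval of Myh11, which was -1.03 to -0.38. The difference of Angpt1 from the 4 mural genes was not tested. The part of mural cell number in the Angpt1 value was not tested. Of the epicardial list, Tbx18 alone was paired and was 0.37 higher on the log2 scale (limma adjusted p = 0.00476), and 0 of the 9 blood markers were paired.

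**Figure D4:**
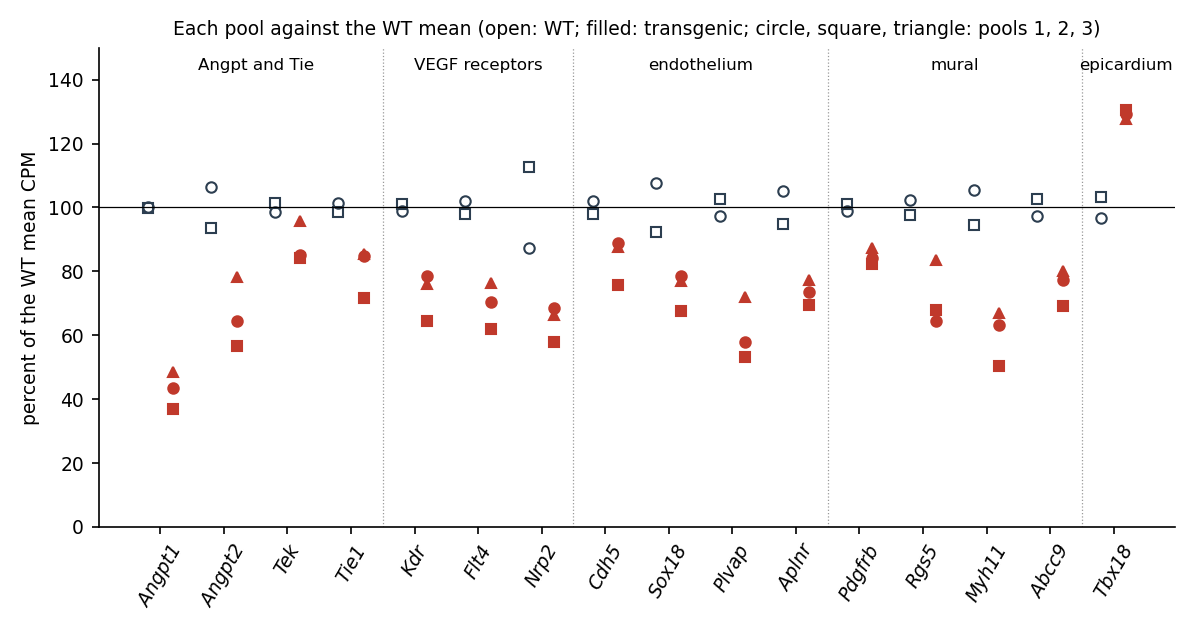
CPM of each pool as a percent of the WT mean (y axis) for the 4 genes of the angiopoietin and Tie group and for the paired VEGF receptor, endothelial, mural and epicardial genes. Open symbols are WT and filled symbols transgenic pools, with a shape for each pool number. Angpt1 lies at 36.8% to 48.4%, below the transgenic points of every other gene, and Tbx18 is the gene above 100%.

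Genes with a pattern like each member were sought among 400 genes with a symbol and a mean of at least 5 CPM, by the root mean square difference of centred log2 values over the 5 pools. Apart from the members, those genes were on the authors' list of changed genes. The genes nearest to Angpt1 were Bmp10 (0.10), Slit2 (0.11) and Slc16a12 (0.12), with log2 fold changes of -1.18, -1.01 and -1.06. They were also the nearest of all 11482 genes compared, with or without a symbol. Of the genes with a symbol, Car8, Galntl1 and Slc22a23 were nearest to Angpt2 at 0.04 each. Zbed6, Pdpk1 and Notch1 were nearest to Tie1 at 0.03 each. Among genes without a symbol, 1 was nearer to Angpt2 than Car8 and 5 were nearer to Tie1 than Zbed6. For Tek, the nearest genes with a symbol were Lpp, Mtap1b and Dcn (0.04, 0.04 and 0.05), but 68 genes without one were nearer than Lpp.

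The differences were recomputed under 13 other settings of normalization, filter, pseudocount, fit and pools. The log2 fold change was below 0 for all 4 genes in each of them, from -1.30 to -1.11 for Angpt1, -0.67 to -0.46 for Angpt2, -0.24 to -0.14 for Tek and -0.36 to -0.23 for Tie1. Angpt1 was past the threshold in 12 of the 13 and Tie1 in 8, Angpt2 in 1 and Tek in 2. The ranges of Angpt1 and of the other 3 genes did not meet. The setting without a filter repeated the reported fit, because the filter removed no gene. The replicate block gave the same log2 fold changes as leaving out transgenic pool 3. The 13 settings are therefore not all separate checks.

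**Figure D5:**
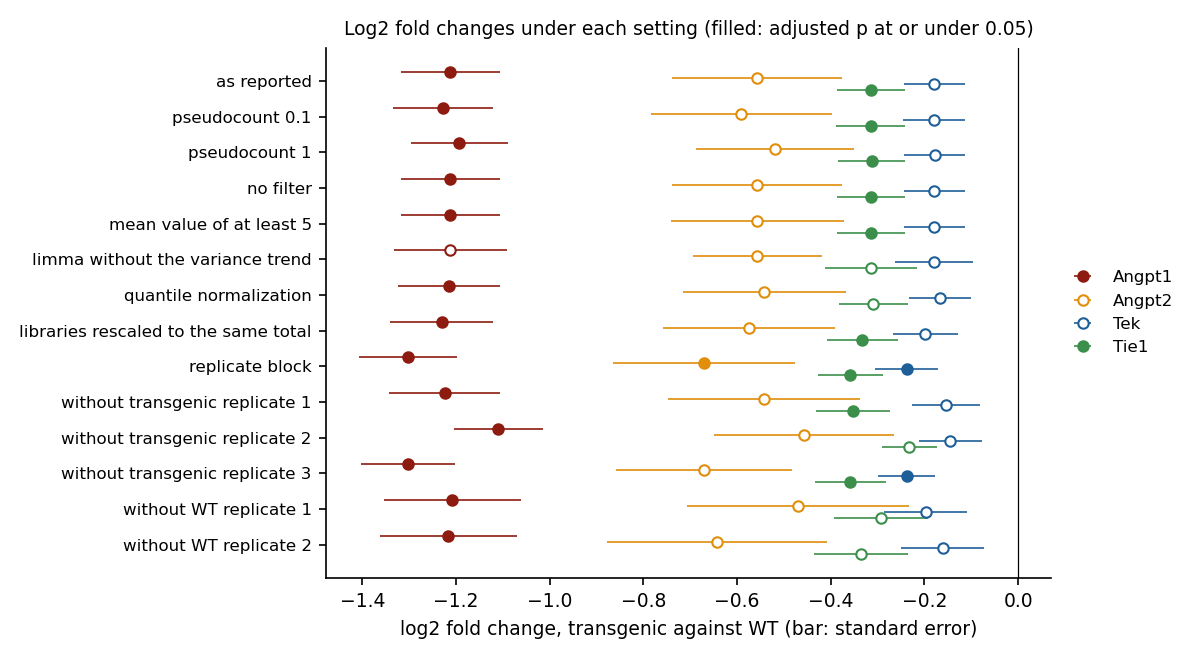
Log2 fold changes of the 4 genes (x axis, with standard errors as bars) as reported and under each other setting (y axis). Filled points are past an adjusted p of 0.05, which holds for Angpt1 in every setting except limma without the variance trend. In no setting does Angpt1 come closer to 0 than -1.11.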

How the data were processed

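RNA-seq of E14.5 hearts was analysed for 3 pools of Nkx2.5Cre/+;Bmp2tg/+ and 2 pools of WT hearts, 4 hearts per pool. The authors removed adaptors from single-end reads with cutadapt, aligned and quantified them per gene with RSEM (GRCm38, Ensembl genes), excluded 1 WT pool and used edgeR. The deposited values are CPM scaled by an adjusted library size, for 12857 genes after low ones were dropped. Column names gave the pools, and 0 columns stayed unused.

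Because CPM are not counts, log2(CPM + 0.5) was compared with limma 3.58.1 in R 4.3.3 (variance trend, no covariates). The filter, at least 1 CPM in at least 2 libraries, removed no gene. limma was tested on simulated data first. Python 3.11.15 was used with scipy 1.17.1, pandas 2.3.3, numpy 2.4.6 and matplotlib 3.10.9. Whether pools of a genotype differ as separate litters do is not given, so p-values measure the spread between these pools.

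The 4 genes, the gene lists and the tests were chosen with earlier results of these data known. Named are the 4 genes, Bmp2, Tie signalling genes past the threshold, up to 4 genes of each other list by lowest p, and the 3 genes nearest to each member. Symbols came from the study's list of changed genes, which pairs 405 of its 406 identifiers, and positions from RefSeq (GRCm38.p6, matched by symbol). The ordinary fit of the ligand to receptor difference and the list medians without transgenic pool 2 were added after seeing the data.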

Additional observations from a re-analysis of the deposited data

How the results depend on the processing

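The number of genes called was 362 as reported, 10 without the variance trend, all higher (2275 genes had an unadjusted p under 0.05 in the reported fit), and 43 to 464 with each pool left out in turn. It was 226 without transgenic pool 2, 45 without WT pool 1 (36 higher and 9 lower) and 43 without WT pool 2 (33 higher and 10 lower), so that higher calls outnumbered lower ones there. The share of called genes that were lower was 56.6% as reported and 66.8% with libraries rescaled to the same total (251 of 376). Without the variance trend the log2 fold changes of Angpt1 (-1.21, adjusted p = 0.0587) and Tie1 (-0.31, adjusted p = 0.274) were not past the threshold, and neither was Tie1 under quantile normalization (-0.31, adjusted p = 0.052). With each pool left out, Tie1 lay between -0.36 and -0.23 and Tek between -0.24 and -0.14. The pool numbers do not pair the samples, as the labels give no shared litter or day and deviations of same-numbered pools correlated at -0.026 and -0.050. With a replicate block by pool number, in which transgenic pool 3 has no partner and drops out, 655 genes were called, and Angpt2 (-0.67, adjusted p = 0.0469) and Tek (-0.24, adjusted p = 0.0427) passed the threshold. The block changed the call of neither Angpt1 nor Tie1. Over their 13 alternatives the adjusted p ranged from 0.0469 to 0.453 for Angpt2 and from 0.0427 to 0.503 for Tek. The medians of the paired gene lists moved by less than the spread between pools in all 3 alternatives. The planned edgeR and DESeq2 tests were not run, because a unit check on the CPM values failed. That check takes the smallest value as 1 read, but it was 7 reads in transgenic pool 1 and 3 reads in WT pool 2. Gaps between low values did give the worth of 1 read. The recovered reads serve here to describe depth and counting error, and no limma or permutation test used them. The calls were not checked with a count test on these reads. Depth limits Angpt2 most, with 43 to 82 reads per pool.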
